A study of Mus musculus with 5 samples.

Results

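The genes described here are the receptors of the interleukin-17 (IL-17) family and a pair of its ligands, measured by RNA sequencing of mouse uterus. The members are Il17ra, Il17rb, Il17rc, Il17rd and Il17re, which encode the 5 receptor chains, and Il17d and Il25, which encode ligands. They were found by gene symbol and are 7 of the 28666 genes in the count table. Of these, 6 had enough counts to enter the comparison of all genes, in which 17013 genes were tested, and Il25 did not. The members were chosen by their values in this same comparison, Il17rb above all, so their differences between the groups are given as a description without a p-value. The study also picked Il17rb from this sequencing for quantitative PCR and reported it as lower in aged-SP uteri. Its text calls its PCR results inconsistent with the sequencing.

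The females were ICR mice of 6 to 8 weeks that had mated with vasectomized C57BL/6 males, so that they received seminal plasma (SP) without sperm and were pseudopregnant. In the young-SP group (replicates 1, 2 and 4) the males were 12 to 14 weeks old, and in the aged-SP group (replicates 1 and 4) they were 12 to 18 months old. All 5 females were of the same strain and age range. The labels do not give the hormonal stage of each female, and whether it was equal between libraries was not tested. The series describes the uteri as taken 3.5 days after caging, and the study's methods give 3.0 days post coitum, before any embryo was transferred. Each library held the whole uterus, so fewer cells of a type and less RNA per cell cannot be told apart. The study set aside 1 young-SP library that clustered apart from the rest, and that library was not analysed here.

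Total counts per library lay between 15071914 and 16728601. Young-SP replicate 1 stood apart from the rest of its group in estrogen-responsive genes such as Ltf, with a summed level of 8160 CPM (counts scaled to the library total) over 7 listed genes. In the remaining young-SP libraries the sum was 394 and 1064 CPM, and in the aged-SP libraries it was between 8923 and 9659 CPM. Aged-SP replicate 1 stood apart in chemokine genes, for which values are given with the IL-17 target genes. Both libraries were kept. Markers of uterine epithelium (Krt8, Krt18, Epcam), stroma (Pdgfra, Hoxa11) and myometrium (Acta2) were present in every library. The vagina and cervix list summed to at most 4.90 CPM. The oviduct list was uneven, with sums of 108 and 149 CPM in aged-SP replicates 1 and 4. In young-SP replicates 1, 2 and 4 its sums were 93.6, 50.2 and 252 CPM. Whether the libraries held unequal amounts of oviduct was not tested.

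IL-17 receptors work as pairs of chains. The chain encoded by Il17ra is the shared partner, and the second chain selects the ligand. Paired with the product of Il17rb it binds IL-25, a cytokine of epithelial and tuft cells that drives type 2 immune responses, whereas paired with the product of Il17rc it binds IL-17A and IL-17F, and with that of Il17re it binds IL-17C. The product of Il17rd, also called SEF, can join IL-17 receptor complexes and is best known as an inhibitor of fibroblast growth factor (FGF) signaling. Signals run through the adaptor Act1, encoded by Traf3ip2, and TRAF6 to NF-kB and C/EBP transcription factors, and induce chemokines and antimicrobial proteins.

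Il17rb (ENSMUSG00000015966) lies on the minus strand at chr14:29996135-30008896 of GRCm38. It was the one member whose level differed by several fold between the groups. Its start faces that of Chdh, the gene of the mitochondrial choline dehydrogenase, which runs the other way. The promoter window of Il17rb in RefSeq (GRCm38.p6, chr14:30008847-30009146, minus strand, 250 bases before the start and 50 after it) is shown because both genes were lower in the aged-SP libraries and their starts are 104 bases apart. The 105 capitals mark the stretch from the first base of Chdh to the first base of Il17rb in RefSeq:
Il17rb promoter: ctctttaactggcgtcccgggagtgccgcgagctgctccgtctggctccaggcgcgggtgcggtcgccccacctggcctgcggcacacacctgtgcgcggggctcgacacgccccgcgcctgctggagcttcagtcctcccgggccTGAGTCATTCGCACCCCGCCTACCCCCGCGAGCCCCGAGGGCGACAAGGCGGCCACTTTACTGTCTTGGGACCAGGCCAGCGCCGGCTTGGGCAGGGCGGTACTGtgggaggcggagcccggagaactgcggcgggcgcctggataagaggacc
The window is rich in G and C, at 72.0% against a median of 52.7% over all promoter windows, and holds 32 CG dinucleotides against a median of 7. A facing start within 250 bases was found for 8.71% of the 27025 genes with a window. Of 3 motifs searched on both strands, ACANNNTGT (the core of the progesterone and glucocorticoid receptor element) had 0 matches and is in 6.85% of the 32851 windows of this length. GGTCA (an estrogen receptor half-site) also had 0 matches and is in 40.5% of windows. TGAGTCA (the AP-1 motif) matched once, at base 147, where the capitals begin, and is in 5.20% of windows. The AP-1 motif was chosen after the sequence was seen. A match is a description of the letters and not of binding.

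Il17rb was expressed at a far lower level in the aged-SP group. Its counts were 205 and 370 in aged-SP replicates 1 and 4. In young-SP replicates 1, 2 and 4 they were 1109, 2289 and 2942. Every young-SP library lay above both aged-SP libraries, and the spread within each group was wide. In FPKM (fragments per kilobase of gene length, scaled to the library total), the scale on which genes of different length can be set side by side, the aged-SP levels were 3.31 and 6.37 and the young-SP levels 18.6, 37.3 and 52.7. The aged-SP mean of 18.03 ± 7.97 CPM (SD, n = 2) was 7.42-fold lower than the young-SP mean of 134 ± 63.5 CPM (SD, n = 3). The fitted log2 fold change of the aged-SP over the young-SP group was -2.89 with a standard error of 0.54. Among the 13434 genes with at least 50 counts on average, Il17rb ranked 27 when log2 fold changes were ordered from the lowest.

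The coefficient of variation of Il17rb was 44.2% among the aged-SP and 47.5% among the young-SP libraries, so its spread was of like relative size in both. Between the lowest and the highest of the 5 libraries its CPM differed 15.8-fold. The young-SP library nearest to the aged-SP group was replicate 1, the library that also stood apart in estrogen-responsive genes. Leaving that library out gave a log2 fold change of -3.22 with a standard error of 0.37. Without aged-SP replicate 1 it was -2.50 and without aged-SP replicate 4 it was -3.43, each fitted with a lone aged-SP library that was assumed to vary like the young-SP libraries.

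**Figure D1:**
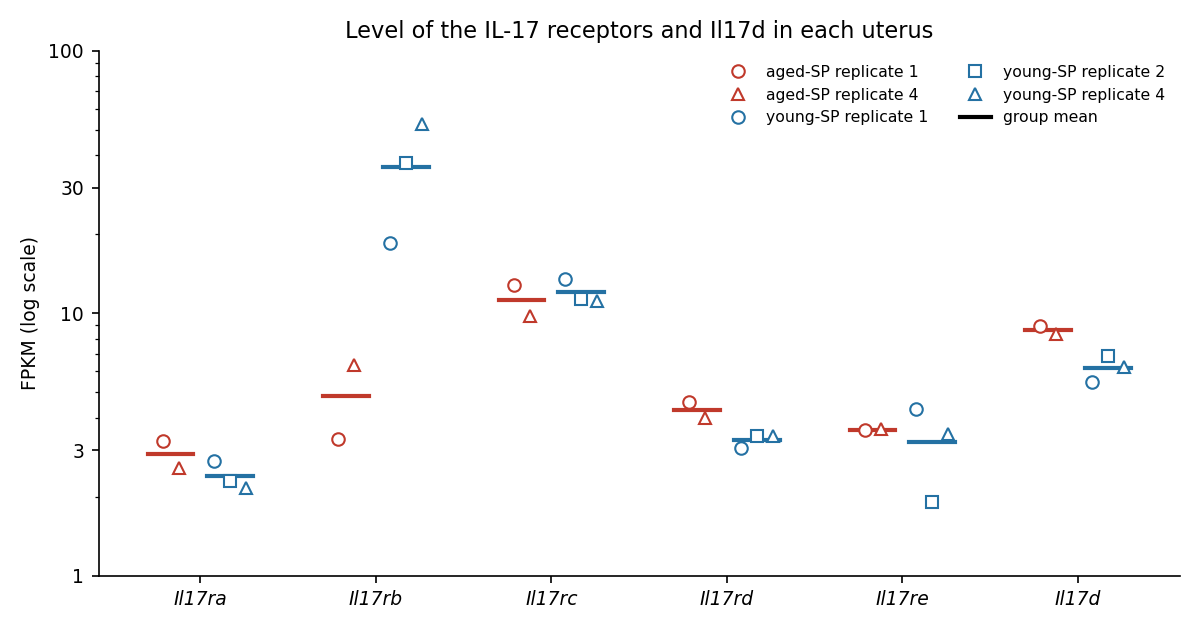
Level in FPKM on a log axis of the 5 receptor genes and Il17d in each library, with symbols for the replicates, red for aged-SP and blue for young-SP, and a bar at each group mean. For Il17rb both aged-SP libraries (3.31 and 6.37) lie under all young-SP libraries (18.6 to 52.7), while the other genes stay within narrower ranges. Of these, Il17re has the widest range by ratio (1.91 to 4.31).

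Il17ra (ENSMUSG00000002897, chr6:120463247-120487559), the shared partner chain, did not follow Il17rb. Its levels were 3.25 and 2.57 FPKM in aged-SP replicates 1 and 4. In young-SP replicates 1, 2 and 4 they were 2.74, 2.30 and 2.16 FPKM. The groups overlapped, since aged-SP replicate 4 lay below young-SP replicate 1. The log2 fold change was 0.29 with a standard error of 0.18, of opposite sign to that of Il17rb. It stayed between 0.10 and 0.46 over the alternatives read out for the members. The highest library exceeded the lowest by 1.51-fold in CPM, on counts of 282 to 471.

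Il17rc and Il17re, the chains that bring in IL-17A, IL-17F and IL-17C, are neighbours on chromosome 6 (Il17rc at chr6:113471427-113483140 and Il17re at chr6:113458484-113470758, both on the plus strand). The aged-SP levels of Il17rc were 12.8 and 9.72 FPKM and its young-SP levels 13.5, 11.3 and 11.1 FPKM. Its groups overlapped, and its log2 fold change was -0.08 with a standard error of 0.17. Il17re stood at 3.59 and 3.62 FPKM in aged-SP uteri and at 4.31, 1.91 and 3.46 FPKM in young-SP uteri. The aged-SP libraries lay inside the young-SP range, in which replicate 2 was the low value, and the log2 fold change was 0.17 with a standard error of 0.35. The low Il17re of young-SP replicate 2 set its sign, since without that library the log2 fold change was -0.11. For Il17rc the sign turned without aged-SP replicate 4 (0.11) and without young-SP replicate 1 (0.01), so neither gene had a direction that held over the libraries.

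Il17rd (ENSMUSG00000040717, chr14:27038941-27107286, plus strand) was the receptor chain with a small difference of the opposite direction to that of Il17rb. It stood at 4.58 and 3.98 FPKM in aged-SP uteri and at 3.06, 3.42 and 3.41 FPKM in young-SP uteri. Both aged-SP libraries lay above all young-SP libraries. The log2 fold change was 0.39 with a standard error of 0.11. It stayed between 0.28 and 0.49 over the alternatives read out for the members.

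The ligand Il17d (ENSMUSG00000050222, chr14:57524777-57543166, plus strand) encodes IL-17D, a family member for which none of the pairs named above is the established receptor. Aged-SP uteri held it at 8.92 and 8.31 FPKM and young-SP uteri at 5.46, 6.87 and 6.25 FPKM. Again both aged-SP libraries lay above the young-SP range. The log2 fold change was 0.49 with a standard error of 0.17, on counts of 112 to 190. It was between 0.40 and 0.56 over the same alternatives.

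Il25 (ENSMUSG00000040770, chr14:54932695-54935837, plus strand), the ligand of the pair of Il17ra and Il17rb, was at the limit of detection. The aged-SP libraries held 1 and 2 counts of it and the young-SP libraries 0, 1 and 1. No library exceeded the floor of 3 counts, and a count of 0 allows a level of up to 0.199 CPM in the shallowest library, for counting error only. A difference in Il25 was not detectable at this depth. The remaining ligands were scarce as well. Il17b, whose product also binds the chain encoded by Il17rb, was counted 16 and 4 times in aged-SP libraries and 4, 2 and 14 times in young-SP libraries. Il17a had between 0 and 4 counts and Il17c between 1 and 11. Il17f had 11 counts in aged-SP replicate 1 and 0 in the rest. Il17d was therefore the one ligand of the family with more than 16 counts in any library.

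Read as a group, the members did not differ together. Of the 6 tested, 0 passed the edgeR quasi-likelihood test at an adjusted p under 0.05 with an absolute log2 fold change above 1, where 0.147% of all tested genes did. At an unadjusted p under 0.05 there were 3 members, against 19.0% of all tested genes, 2 of them higher in the aged-SP group (background 9.62%) and 1 lower (background 9.36%). DESeq2 called 1 member, Il17rb, where it called 3.64% of the tested genes. The groups did not overlap for 3 members, against 38.8% of all tested genes, with the aged-SP group above for Il17rd and Il17d (background 19.5%) and below for Il17rb (background 19.3%). Since the members were selected on this comparison, nothing is read from these counts. The median log2 fold change was 0.23 over the 6 members and 0.01 over all tested genes.

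The make-up of the receptor family differed mainly in Il17rb. The summed level of the 5 receptor genes was 27.5 and 26.3 FPKM in the aged-SP libraries and 42.2, 56.3 and 72.8 FPKM in the young-SP libraries. The other 4 receptors together came to 22.0 ± 3.04 FPKM (SD, n = 2) for aged-SP and 20.9 ± 2.43 FPKM (SD, n = 3) for young-SP, a gap smaller than either SD. Il17rb made up 12.02% and 24.2% of the sum in the aged-SP libraries and 44.0%, 66.3% and 72.3% in the young-SP libraries. Its mean share was 18.1% ± 8.64 (SD, n = 2) against 60.9% ± 14.9 (SD, n = 3), a difference of -42.7 percentage points that is larger than the SD of either group.

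**Figure D2:**
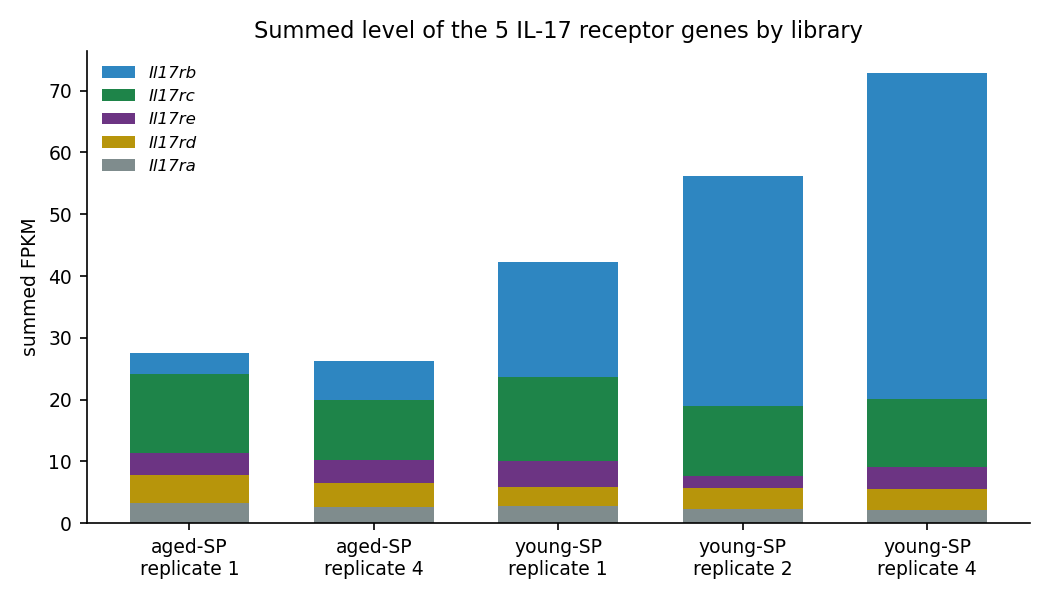
Summed level in FPKM of the 5 IL-17 receptor genes in each library, stacked by gene, with Il17rb on top. The part below Il17rb has about the same height in all 5 libraries, and the total ranges from 26.3 to 72.8 FPKM with the height of the Il17rb part.

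Per length, Il17rb was the most abundant receptor gene in all 3 young-SP libraries. In the aged-SP libraries Il17rc held that place, and Il17rb came second in replicate 4 and behind Il17rc, Il17rd and Il17re in replicate 1. Relative to its partner Il17ra, Il17rb stood at 1.02 and 2.48 in the aged-SP libraries and at 6.77, 16.2 and 24.4 in the young-SP libraries. The ratio of Il17rc to Il17ra varied little, from 3.78 to 3.93 among aged-SP and from 4.93 to 5.15 among young-SP libraries, yet these ranges did not overlap either. In aged-SP replicate 1 the 4 receptors other than Il17rc lay close together, between 3.25 FPKM for Il17ra and 4.58 FPKM for Il17rd.

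The genes beside Il17rb were read out next, within 100 kb on either side. Chdh, which faces Il17rb, was at 126 and 186 CPM in the aged-SP libraries and at 286, 248 and 299 CPM in the young-SP libraries. The groups did not overlap, and its log2 fold change was -0.83 with a standard error of 0.20. The edgeR quasi-likelihood test gave Chdh a p of 0.00643 and an adjusted p of 0.125 over all genes, and DESeq2 an adjusted p of 0.00329. Its difference was below the fold change asked of a call by either tool, and within the young-SP group Chdh did not follow the order of Il17rb.

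Actr8, which encodes a subunit of the INO80 chromatin remodelling complex, runs along the opposite strand at chr14:29978337-30006354 and ends inside the span of Il17rb. It was at 46.1 and 58.6 CPM in the aged-SP libraries and at 64.8, 94.1 and 120 CPM in the young-SP libraries, in the same library order as Il17rb. Its log2 fold change was -0.83 with a standard error of 0.28 and an adjusted p of 0.210 by edgeR. An exon of Actr8 (chr14:30005991-30006354) shares 141 bases with exons of Il17rb, which is 3.80% of the exonic bases of Il17rb. The library kit is not one that marks strand, so reads of these bases cannot be told apart between the genes, and their part in the values was not tested. Beyond these, Selenok had a log2 fold change of 0.15 and Cacna1d of -0.06. CT009536.2, a processed pseudogene with 8 to 19 counts, had one of -0.62 with overlapping groups, and CT009536.1 and Mir6947 had too few counts to be tested.

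**Figure D3:**
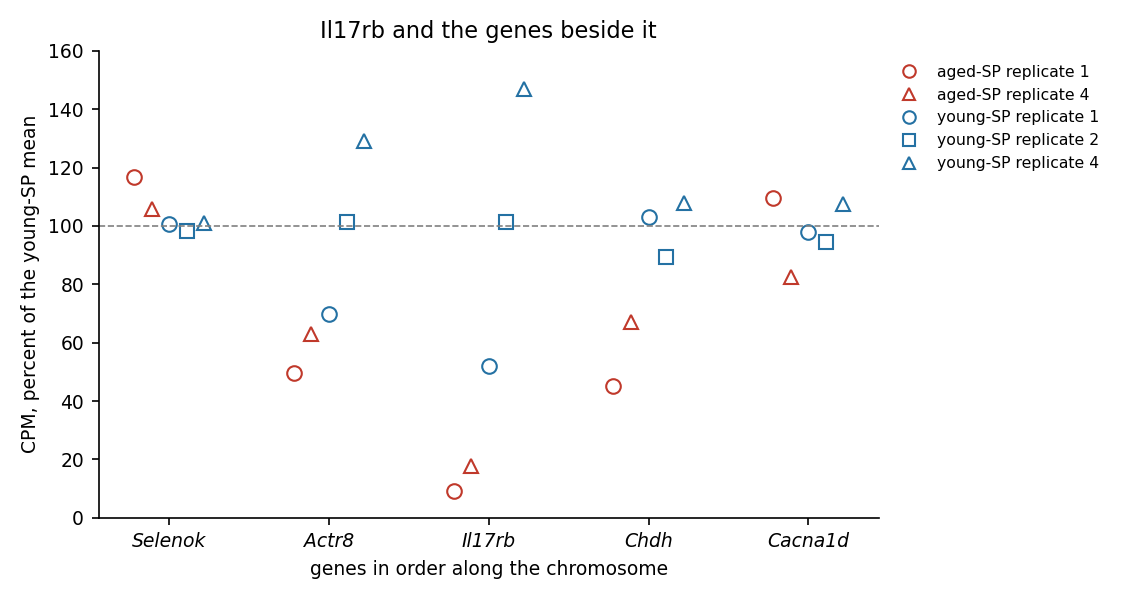
CPM of Il17rb and of the protein-coding genes near it in each library, as a percentage of the young-SP mean of the gene, in their order along the chromosome. Il17rb is under 20% of the young-SP mean in both aged-SP libraries, Actr8 and Chdh lie between 45.3% and 67.2% there, and Selenok and Cacna1d lie between 82.4% and 117%.

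The pattern of Il17rb over the 5 libraries was compared with that of 13435 genes by the root mean square difference of centred log2 CPM. Among the members the distance to Il17rb was between 1.52 (Il17rc) and 1.71 (Il17d), larger than for Actr8 (1.03) and Chdh (1.09). The 5 genes most like it were Gm43305 (0.21), Cpne5 (0.26), Sult5a1 (0.31), Gm10238 (0.32) and Lamc3 (0.32). Lamc3, a laminin chain, was at 7.62 and 7.61 CPM in the aged-SP libraries and at 36.5, 61.5 and 80.6 CPM in the young-SP libraries. Cpne5, a calcium-dependent phospholipid-binding protein, was at 1.57 and 3.45 CPM against 6.00, 15.1 and 22.9 CPM. For Il17ra the 5 nearest genes were Fkbp2 (0.02), Clptm1l, Ptbp3, Tmed2 and Apaf1 (0.03 each). These distances are small because Il17ra itself varied little. All points of each pattern share the same 5 libraries, and the likeness says nothing of shared function.

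The other genes of the pathway were taken from lists written for this purpose. The background for the counts of every list is the share over all tested genes. At an unadjusted p under 0.05, 9.62% of these were higher and 9.36% lower with aged-SP. The share called was 0.147% by edgeR and 3.64% by DESeq2. Of 20 genes of receptor-proximal signaling, 0 were called by edgeR, 3 were higher at an unadjusted p under 0.05, 0 were lower, and DESeq2 called 1. The gene called by DESeq2 was Cebpb, an IL-17-responsive transcription factor, at 18.9 and 11.9 CPM in the aged-SP libraries and 9.01, 5.79 and 7.21 CPM in the young-SP libraries, with an adjusted p of 0.0275 by DESeq2 and 0.149 by edgeR. Rela, the NF-kB subunit p65, differed by 0.37 on the log2 scale (standard error 0.11, edgeR adjusted p of 0.179). Traf3ip2, which encodes the adaptor of all these receptors, was at 35.8 and 35.6 CPM in the aged-SP libraries and at 37.6, 39.5 and 34.6 CPM in the young-SP libraries. The median log2 fold change of the list was 0.12.

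Of the 17 IL-17 target genes 15 were tested, of which 0 were called by edgeR. At an unadjusted p under 0.05, 4 were higher and 0 lower. DESeq2 called 1 but gave no adjusted p for Lcn2, which is also in the estrogen response list. The median log2 fold change of the target genes was 1.33, which is the value of Lcn2, and 0.02 without aged-SP replicate 1. For the chemokine genes the difference came from 1 library. Cxcl1, which the study picked on these samples and which DESeq2 called, was at 14.025 CPM in aged-SP replicate 1 and at 0.640 CPM in aged-SP replicate 4, and at 0.813, 0.0591 and 0.334 CPM in the young-SP libraries. Ccl2 was at 42.9 CPM in aged-SP replicate 1 and at 1.83 to 2.54 CPM in the rest. Ptgs2, which encodes the prostaglandin synthase COX-2, was the target gene with separate groups, at 29.1 and 20.5 CPM against 16.9, 2.78 and 4.67 CPM, with an edgeR adjusted p of 0.314.

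**Figure D4:**
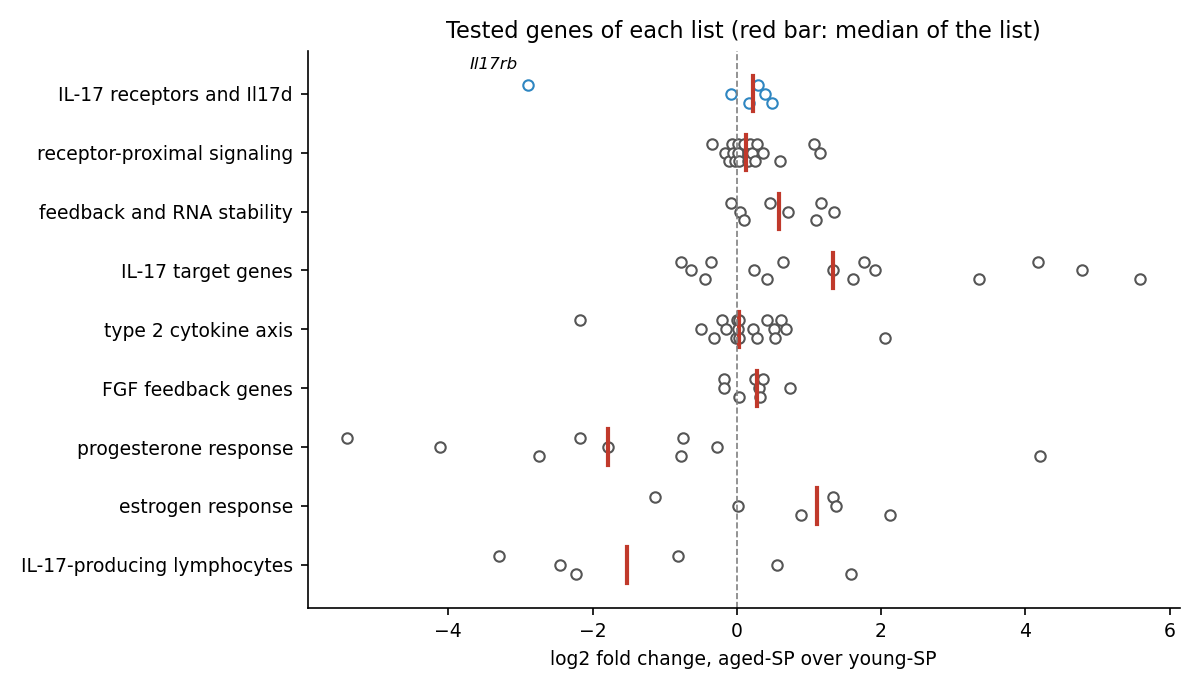
Fitted log2 fold change of the aged-SP over the young-SP group for each tested gene of the lists, with a red bar at the median of each list. Il17rb lies at -2.89, apart from the other members, which lie between -0.08 and 0.49.

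The type 2 cytokine axis, in which IL-25 and its receptor act, had 21 listed genes and 18 tested. By edgeR 0 were called, 4 were higher and 1 lower at an unadjusted p under 0.05, and DESeq2 called 2, with a median log2 fold change of 0.03. The gene that was lower was Il13ra2, the decoy receptor of IL-13, which is also in the progesterone response list. It was at 14.3 and 5.31 CPM in the aged-SP libraries and 67.6, 25.5 and 39.9 CPM in the young-SP libraries (edgeR adjusted p of 0.153, DESeq2 adjusted p of 0.00101). Retnla, a gene induced by type 2 cytokines in macrophages and other cells, was at 44.2 and 49.6 CPM against 8.38, 17.8 and 7.61 CPM, with an adjusted p of 0.0905 by edgeR and 1.93e-05 by DESeq2. Il4ra differed by 0.61 on the log2 scale (standard error 0.15), below the fold asked of a call. Il33 and Tslp, the alarmins that act beside IL-25, had overlapping groups, at 7.32 to 9.75 CPM and 0.846 to 1.31 CPM, and Il5 and Il13 were near 0. The FGF feedback list, set beside Il17rd, had 8 tested genes with 0 called by either tool, 2 higher at an unadjusted p under 0.05 and a median of 0.27, which was -0.13 without aged-SP replicate 1. Spry1 was at 27.6 and 19.3 CPM against 11.8, 13.4 and 17.2 CPM, and Spry2 at 21.2 and 18.2 CPM against 21.8, 23.8 and 21.5 CPM.

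Markers of cells that make or receive these cytokines were summed in each library. For uterine epithelium (7 genes) the sums were 1171 and 1204 CPM in the aged-SP libraries. In young-SP replicates 1, 2 and 4 they were 1474, 731 and 897 CPM, so only replicate 1 lay above the aged-SP values. Of these genes 1 was higher at an unadjusted p under 0.05, and 0 were called by edgeR or DESeq2. This was Krt18, with a log2 fold change of 0.38 and an edgeR adjusted p of 0.178. The part of epithelial content in the difference of Il17rb was not tested. For leukocytes (5 genes) the sums were 306 to 337 CPM and 283 to 401 CPM, with 0 genes under an unadjusted p of 0.05 and 0 called by edgeR or DESeq2. The list of type 2 innate lymphoid cells, which respond to IL-25, summed to 12.6 to 13.1 CPM in the aged-SP libraries and 8.01 to 13.2 CPM in the young-SP libraries. Of its 5 tested genes edgeR called 0, and 1 was lower at an unadjusted p under 0.05 and called by DESeq2. This was Areg, the growth factor amphiregulin, which is also in the progesterone response list, at 0.0605 and 0 CPM against 0.188, 1.66 and 3.07 CPM (adjusted p of 0.185 by edgeR and 0.0312 by DESeq2). The median log2 fold change of -0.19 had no stable sign, at -0.63 without aged-SP replicate 1 and 0.30 without aged-SP replicate 4. The eosinophil list summed to 13.2 to 14.97 and 9.01 to 16.97 CPM, with the granule gene Epx at or near 0. Of the tuft cell list 3 of 8 genes were tested, and the defining markers Pou2f3, Trpm5 and Gfi1b stayed under 0.71 CPM in every library. The list summed to 64.1 and 80.2 CPM in the aged-SP libraries and to 80.9, 95.9 and 94.7 CPM in the young-SP libraries, without overlap. Dclk1, which other cells also express, made up most of the sum, at 55.7 and 70.2 CPM against 71.6, 88.4 and 87.5 CPM. Its unadjusted p was 0.0469 and its adjusted p 0.258 by edgeR, and DESeq2 did not call it.

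In the list of IL-17-producing lymphocytes (8 genes, 6 tested) edgeR called 0 genes (background 0.147%). At an unadjusted p under 0.05, 3 genes were lower (background 9.36%), all of which DESeq2 called (background 3.64%). Trdc, the constant region of the gamma-delta T cell receptor, was at 0.725 and 0.831 CPM in the aged-SP libraries and at 3.94, 4.55 and 2.47 CPM in the young-SP libraries. Cd163l1 and Blk, which mark IL-17-producing gamma-delta T cells, were 0.846 and 0.959 against 7.32, 13.4 and 6.14 CPM, and 0.725 and 0.704 against 4.50, 4.79 and 2.54 CPM. The 3 genes had adjusted p values of 0.0829, 0.0734 and 0.0767 by edgeR, in that order. Their counts in aged-SP replicates 1 and 4 were low, at 12 and 13 for Trdc, 14 and 15 for Cd163l1, and 12 and 11 for Blk. Other genes of the list did not share this difference. The T cell genes Cd3e and Trac had overlapping groups, with log2 fold changes of -0.81 and 0.56. Il23r and Ccr6 had too few counts to be tested by edgeR, and their groups overlapped. Il17a, the product of these cells, had at most 4 counts in any library. The levels of Trdc, Cd163l1 and Blk moved with the groups as Il17rb did, and their part in the difference of Il17rb was not tested.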

How the data were processed

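Uterine RNA of 5 ICR females (2 aged-SP, 3 young-SP) was analysed, with groups taken from the sample labels and 0 columns left unmapped. Nothing in the labels says more of how the females were kept or pooled, so p-values weigh the group difference against the spread between these samples. The authors filtered and aligned the reads, and the submitters' processing notes name HISAT2 2.1.0, Bowtie2 2.2.3 and HTSeq 0.6.0. They deposited the unnormalized count of each gene. The deposited FPKM, also the authors' own, equal those counts per gene length and total count and were used only to set genes side by side. The authors' fold changes, p-values and adjusted p-values were not used.

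The groups were compared in R 4.3.3 with edgeR 4.0.16 (filterByExpr, TMM factors of 0.990 to 1.02, glmQLFit and glmQLFTest, two-sided, Benjamini-Hochberg adjustment over all tested genes), and alternatively with DESeq2 1.42.0 and limma 3.58.1. A call is an adjusted p under 0.05 with an absolute log2 fold change above 1. The standard errors given were derived from the edgeR test, as the absolute log2 fold change over the square root of its F statistic. The biological coefficient of variation was 25.1%. The scripts were tested on simulated counts. CPM values are scaled by TMM. The floor was 3 counts, for counting error only. Positions are those of GENCODE M21, which 26999 genes share, and 5 members have a RefSeq promoter window.

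The members, the 20 gene lists and the tests were chosen with earlier results of these data known. Genes were named by rule: the members, the other ligands, called listed genes, in each list up to 2 genes at each end among those with at least 1 CPM and separate groups, the genes within 100 kb of Il17rb, and the 5 genes nearest in pattern. Traf3ip2, Il4ra, Il33, Tslp, Il5, Il13, Cxcl1, Ccl2, Trdc, Ltf, Ihh, Cyp26a1, Areg, Spink1 and the marker genes of tissues were named in addition, after their values were seen, to show a role or a library. Cd3e, Trac, Il23r and Ccr6 were named to show more of their list, and Lcn2, Clca1 and Sprr2b as genes without a DESeq2 adjusted p. Alternatives were other scaling, DESeq2, limma-voom, other filters, a replicate block and leaving out each library. The limma-voom fit was read out only for the number of genes called and not for the members. A gene of the lists is not reported here.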

Additional observations from a re-analysis of the deposited data

How the results depend on the processing

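Il17rb kept its direction under the 11 alternatives read out for it. Its log2 fold change lay between -3.43 and -2.50, both from leaving out 1 aged-SP library. Its share of the receptor sum differed by -51.2 to -36.6 percentage points over the libraries left out. The number of genes called over all genes was 25 and depended strongly on the setting. It was 632 with DESeq2's Wald test, 203 with no filter on low counts and 27 with limma-voom. Leaving out 1 library gave between 1 and 578 calls: without aged-SP replicates 1 and 4 there were 1 and 49, and without young-SP replicates 1, 2 and 4 there were 578, 3 and 2. Of the listed pathway genes, 23 had an unadjusted p under 0.05, and 9 to 30 with 1 library left out: 11 without aged-SP replicate 1, and 9 and 11 without young-SP replicates 2 and 4. In the fit to all 5 libraries 83 listed pathway genes were tested, and 19.0% of all tested genes had such a p. Without 1 aged-SP library the lone one left was assumed to vary like the young-SP group. With the replicate number as a block, 2 genes were called. The log2 fold change of Il17rb was then -2.77 with a standard error of 0.19, against 0.54 without the block. The groups share 2 numbers, whose libraries had correlations of deviations of 0.152 and 0.136. With 2 aged-SP libraries the deviations of one mirror those of the other, so these correlations cannot settle a pairing. No source says whether a number marks a shared animal or day, and a pairing is unknown. The sign of Il17re turned under the block (-0.10). The members' scarce ligands are limited by depth, and with 2 against 3 libraries the values of single libraries weigh heavily. The causes of these shifts were not tested.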

Other observations

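Genes of the ovarian hormone response, which shape the uterus before implantation, were read in the same fit. Of 9 progesterone-responsive genes, edgeR called 0 and DESeq2 called 5 (background 0.147% and 3.64%). At an unadjusted p under 0.05 there were 8 lower and 1 higher with aged-SP (background 9.36% and 9.62%). Their median log2 fold change was -1.78, against -1.09 and -1.26 when young-SP replicates 2 and 4 were left out in turn and -0.77 over genes with at least 10 counts in every sample. Lrp2, an endocytic receptor, was at 24.8 and 17.3 CPM in the aged-SP libraries and at 176, 362 and 554 CPM in the young-SP libraries, in which the libraries stood in the same order as for Il17rb (edgeR adjusted p of 0.0734). Calca, the calcitonin gene, was at 0.302 and 0.512 CPM against 1.88, 3.67 and 2.74 CPM (edgeR adjusted p of 0.0830). Ihh, the hedgehog ligand of the epithelium, was at 7.98 and 11.5 CPM against 20.8, 45.3 and 34.6 CPM (edgeR adjusted p of 0.109). The gene that was higher, Cyp26a1, was at 104 CPM in aged-SP replicate 1 and at 2.30 to 3.40 CPM in the rest. For Lcn2, Clca1 and Sprr2b of the estrogen response list DESeq2 gave no adjusted p, so it could not call them. The estrogen response list had a median of 1.11, which was 5.38 without young-SP replicate 1, with 1 of 6 tested genes higher at an unadjusted p under 0.05 and 0 called by edgeR or DESeq2. That gene was C3, the complement component, at 4944 and 3018 CPM against 1759, 347 and 631 CPM (edgeR adjusted p of 0.196).

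The gland list (5 tested) had 0 genes called by edgeR, and at an unadjusted p under 0.05 there were 1 higher and 1 lower. Its median log2 fold change was 3.07, against 0.30 without aged-SP replicate 1, 1.52 over genes with at least 10 counts in every sample and -0.02 with DESeq2. The DESeq2 median is over Foxa2, Spink1 and Cxcl15 alone, since DESeq2 gave no p for the rest of the list and could not call them. The higher gene was Spink1, a trypsin inhibitor, at 153 CPM in aged-SP replicate 1, 12.2 CPM in aged-SP replicate 4 and 11.1, 10.8 and 7.74 CPM in the young-SP libraries (edgeR adjusted p of 0.184). Prss29, an implantation protease, was at 2458 and 2137 CPM in the aged-SP libraries and at 385, 2.96 and 11.5 CPM in the young-SP libraries, with an edgeR adjusted p of 0.312. The gland list summed to 2927 to 4071 CPM against 39.3 to 504 CPM, while Foxa2, the transcription factor of gland cells, overlapped. The lower gene was Cxcl15, at 2.90 and 1.92 CPM against 8.69, 20.2 and 8.14 CPM (edgeR adjusted p of 0.116). Of 8 feedback and RNA stability genes of IL-17 signaling, 0 had an unadjusted p under 0.05 or were called by edgeR or DESeq2, and the median was 0.59, or 0.02 without aged-SP replicate 1. In stroma, 3 of 6 genes were lower at an unadjusted p under 0.05, among them Pdgfra with a log2 fold change of -0.65. In endothelium 1 of 5 was lower and in oviduct 1 of 3 was higher, and for myometrium (6 tested) and vagina and cervix (2 tested) there were 0. Of these cell type lists edgeR called 0 genes, and DESeq2 called Cxcl15 of the glands and Pax8 of the oviduct list, which was at 54.8 and 27.4 CPM against 25.4, 14.4 and 16.96 CPM.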
